A study of Mus musculus with 22 samples.

Results

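The mitochondrial ribosomal protein genes are the protein-coding genes of the count table whose symbol is Mrps or Mrpl followed by a digit. They number 78 of the 29367 genes counted, 29 Mrps genes named for the small subunit and 49 Mrpl genes named for the large subunit. They lie on 17 chromosomes, and 32 of them share exon bases with another gene, which a library that does not mark strand cannot separate. All 78 passed the filter on low counts in each comparison, and the lowest count of any of them in any library was 84.

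RNA bound to ribosomes of optic nerve astrocytes was sequenced from RiboTag mice, in which Cre driven by GFAP adds an HA tag to the ribosomal protein Rpl22. All mice were Rpl22 HA/HA and Cre positive on a C57Bl/6 background, 3 to 4 months old, labelled WT, and had microbeads injected into 1 eye to raise its pressure. RNA was taken after 7 or 30 days from the unmyelinated optic nerve head (ONH) and from an equal length of the myelinated optic nerve proper behind it (ONP), as 4 replicates of either region at the earlier day and 7 at the later. Each replicate pooled 4 mice, so that the tests measure the spread between pools. Uninjured nerves were not analysed here, and time is therefore 30 against 7 days. Both regions were dissected from the same mice, but no source ties a library number to a pool, and 7-day libraries, known by group, are numbered here as in their column names. GFAP-driven Cre follows the astrocyte lineage, and a pull-down can carry RNA of other cells.

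Mitochondria keep their own ribosome, which translates the few messages of mitochondrial DNA, all for core subunits of the respiratory chain and ATP synthase. Its 12S and 16S rRNAs come from mitochondrial DNA, but all of its proteins are encoded in the nucleus, made in the cytosol and imported. Many of these proteins have bacterial relatives and many others are found in mitochondria alone, and mutations in several, such as Mrps16, Mrps22, Mrps34, Mrpl3 and Mrpl44, cause inherited deficiencies of oxidative phosphorylation.

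The promoters of the genes were read first, and their letters were not tested against any difference between the groups. RefSeq windows (GRCm38.p6) from 250 bases before to 50 after a transcript start were found for 69 of the genes, in 75 entries. The letters searched on both strands were GCGCA and GCGC around any 1 base for NRF1, CCGGAAGT for ETS factors, AAGATGGCG for YY1, GGGCGG for SP factors, CACGTG for the E-box and TATAAA for the TATA box. The shares given next are of the 75 windows and then of all 32851 RefSeq windows. NRF1 letters stood in 17.3% against 4.6%, ETS letters in 16% against 3.89%, and YY1 letters in 10.7% against 1.4%. SP letters stood in 52% against 35.7%, the E-box in 9.33% against 7.15% and TATAAA in 6.67% against 13.6%. Some genes have several windows, and the 7 windows with an E-box belong to 5 genes. Counted by gene, of 69, NRF1 letters stood in 13, ETS in 12, YY1 in 8, SP in 34 and TATAAA in 5. The windows of these genes were also richer in GC (median 58.7% against 52.7%), and a match is a run of letters, not a bound site. The 6 sequences below are the 250 bases before the start, all on the plus strand, of genes that carry the results. Mrpl12 (chr11:120484387-120484636), Mrpl27 (chr11:94653541-94653790), Mrpl36 (chr13:73330759-73331008) and Mrps14 (chr1:160194965-160195214) were higher in the ONH at both days. Mrpl52 (chr14:54426659-54426908) had the largest regional difference at 30 days and Mrps2 (chr2:28467816-28468065) the most negative one, and neither holds any of the letters in the 250 bases shown, while the ETS letters of Mrpl52 lie in the 50 bases after its start. Capitals mark NRF1 letters in Mrpl12, ETS letters in Mrpl27, an E-box and then YY1 letters in Mrpl36, and SP letters in Mrps14.
Mrpl12: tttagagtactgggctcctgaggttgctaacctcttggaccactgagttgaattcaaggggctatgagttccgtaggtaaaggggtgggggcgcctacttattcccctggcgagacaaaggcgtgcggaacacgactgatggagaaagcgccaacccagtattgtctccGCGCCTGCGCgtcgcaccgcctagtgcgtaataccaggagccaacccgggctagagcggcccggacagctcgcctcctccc
Mrpl27: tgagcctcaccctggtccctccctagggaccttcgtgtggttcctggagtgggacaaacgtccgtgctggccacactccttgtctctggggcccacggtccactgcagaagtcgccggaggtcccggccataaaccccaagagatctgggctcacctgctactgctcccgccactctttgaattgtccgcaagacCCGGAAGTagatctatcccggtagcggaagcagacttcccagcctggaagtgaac
Mrpl36: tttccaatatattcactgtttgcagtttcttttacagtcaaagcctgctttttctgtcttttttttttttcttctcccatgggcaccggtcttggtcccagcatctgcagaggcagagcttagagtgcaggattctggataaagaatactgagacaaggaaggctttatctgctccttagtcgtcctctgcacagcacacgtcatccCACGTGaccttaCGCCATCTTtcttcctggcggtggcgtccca
Mrps14: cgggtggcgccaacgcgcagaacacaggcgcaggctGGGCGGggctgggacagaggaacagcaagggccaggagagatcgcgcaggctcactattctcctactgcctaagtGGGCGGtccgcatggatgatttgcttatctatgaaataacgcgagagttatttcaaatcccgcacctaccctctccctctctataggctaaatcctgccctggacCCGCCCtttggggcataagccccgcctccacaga
Mrpl52: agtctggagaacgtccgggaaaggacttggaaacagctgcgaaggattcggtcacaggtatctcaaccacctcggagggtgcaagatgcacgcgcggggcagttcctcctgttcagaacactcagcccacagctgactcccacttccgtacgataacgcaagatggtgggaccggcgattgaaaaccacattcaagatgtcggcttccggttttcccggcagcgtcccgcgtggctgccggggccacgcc
Mrps2: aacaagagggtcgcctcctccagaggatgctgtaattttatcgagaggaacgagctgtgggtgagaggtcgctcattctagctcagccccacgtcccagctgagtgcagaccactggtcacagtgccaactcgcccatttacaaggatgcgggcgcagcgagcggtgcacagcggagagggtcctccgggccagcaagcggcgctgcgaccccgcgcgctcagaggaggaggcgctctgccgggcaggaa

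Levels of single Mrp genes were ranked as CPM (counts scaled to 1000000 per library) per kilobase of the principal transcript. Other levels below are CPM not divided by length. Mrps6, a small-subunit protein with a bacterial relative, stood highest, at 198 ± 73.9 (SD, n = 4) in the ONH and 106 ± 11.8 in the ONP at 7 days, and 235 ± 59.7 (n = 7) and 136 ± 25.1 after 30 days. Its exons share bases with Slc5a3, a myo-inositol transporter, on the same strand, so its counts are uncertain. As means of the 4 groups, Mrps33 had 95.9 CPM per kilobase, and Mrpl28 and Mrpl27 led the large subunit with 122 and 108. The low end held Mrpl1 with 4.28, Mrpl32, which the m-AAA protease must process before it enters the ribosome, with 4.67, Mrps22 with 6.86 and Mrps5 with 7.32. In the ONP at 30 days Mrpl28 and Mrpl27 had 119 ± 9 and 96.3 ± 9.03 CPM per kilobase. The order depends on the length used: over all annotated exons Mrpl28 ranked 1 and Mrps6 2, and Mrps22 ranked 78, the lowest.

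Summed over all 78 genes, the level was higher in the ONH than in the ONP at both days. ONH libraries 1, 3, 5 and 6 at 7 days held 3033, 3848, 4705 and 3039 CPM, and ONP libraries 1, 2, 5 and 6 held 2796, 2777, 2634 and 2551 CPM. The ONH libraries at 30 days ran from 3730 through a median of 4398 to 6403 CPM, those of the ONP from 2989 through 3162 to 3458 CPM. The regions did not overlap at either day. In the ONP each 30-day library lay above each 7-day library, whereas in the ONH library 5 at 7 days exceeded the 30-day median. The mean log2 CPM of the Mrps genes was 5.18 ± 0.285 (SD, n = 4) in the ONH and 4.80 ± 0.0734 in the ONP at 7 days, and 5.50 ± 0.216 (n = 7) against 5.07 ± 0.0833 at 30 days. For the Mrpl genes it was 5.30 ± 0.283 against 4.88 ± 0.0789, and then 5.61 ± 0.222 against 5.12 ± 0.0943. In bulk RNA, fewer cells of a type and less RNA per cell cannot be told apart.

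**Figure D1:**
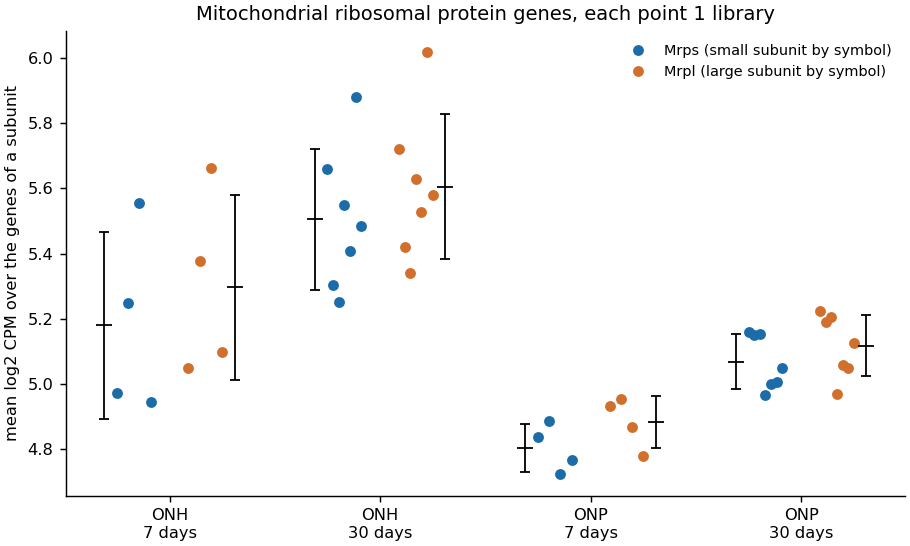
Mean log2 CPM of the 29 Mrps and the 49 Mrpl genes (vertical axis), 1 point per library by region and day, with group mean ± SD. Both subunits follow the same order of groups, and the Mrps means of the ONP libraries at 7 days stay between 4.72 and 4.89 while those of the ONH libraries at 30 days lie between 5.25 and 5.88.

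Other measures moved with region and day. Total counts were 16292489 to 33307092 per library, so that 3 counts equal 0.0901 to 0.184 CPM. The 9 astrocyte markers summed to 14510 to 27540 CPM in the ONH and 15000 to 33470 CPM in the ONP, with none at 0 in any group. In the ONP their median went from 19940 CPM at 7 days to 28560 CPM at 30 days. The 8 oligodendrocyte markers, also none at 0, summed to 18880 to 35890 CPM in the ONH and 82290 to 107700 CPM in the ONP at 7 days, and to 13740 to 41450 against 25900 to 84270 CPM at 30 days. The 8 microglia and macrophage markers summed to 230 to 2515 (median 1634) CPM in the ONH and 1966 to 3252 (median 2452) CPM in the ONP at 7 days, and to 228 to 5319 (median 714) against 292 to 5255 (median 452) CPM at 30 days. For 6 endothelial markers it was 24.5 to 228 (median 156) against 70.1 to 116 (median 88.9) CPM, and then 20.5 to 84.9 (median 43.4) against 8.99 to 72.2 (median 16.7) CPM. Over both days, summed CPM in the ONH and then the ONP was 76.1 to 5109 and 2.23 to 116 for 4 photoreceptor markers, and 67.6 to 819 and 3.46 to 8.14 for 5 pigment cell markers. It was 369 to 1507 and 69.7 to 518 for 4 fibroblast, 61.8 to 384 and 45.6 to 106 for 4 mural, and 17.3 to 145 and 10 to 34.6 for 5 neuron markers. The 2 oligodendrocyte precursor markers gave 24.4 to 93.7 and 96.7 to 155, the 4 of surface epithelium 0.59 to 276 and 0 to 69, and the 3 pituitary genes, of which Gh and Prl were at 0 at 7 days, 0.808 to 220 and 0.7 to 2.72. Short transcripts moved too: genes other than the Mrp genes with a principal transcript under 1000 bases had a mean log2 CPM of 2.31 ± 0.328 in the ONH and 1.86 ± 0.0805 in the ONP at 7 days, and 2.70 ± 0.25 against 2.15 ± 0.0722 at 30 days. The Mrp genes had a median length of 1302 bases against 2879 for all genes tested. ONH library 5 at 7 days and ONH library 6 at 30 days were highest of their groups both for the short genes, at 2.79 and 3.15, and for the Mrp genes. The part of other cells in the differences below was not tested.

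Between the regions at 30 days, 56 of the 78 genes were higher in the ONH and 2 were lower (edgeR's quasi-likelihood test, Benjamini-Hochberg adjusted p under 0.05). Of all 15133 genes tested, 21.8% were called higher and 20.0% lower. The called genes comprised 20 higher and 2 lower of 29 Mrps genes, and 36 higher and 0 lower of 49 Mrpl genes. The median log2 fold change of all 78 was 0.50, against -0.01 for all genes, and 70 values were positive. For 29 of them each ONH library exceeded each ONP library, and for 0 the reverse held, against 9.26% and 7.09% of all genes. DESeq2 called 56 higher and 4 lower, against 18.8% and 17.9% of its genes.

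Mrpl52, a large-subunit protein found in mitochondria alone, differed most. Its lowest, median and highest levels were 14.6, 20.7 and 38.9 CPM in the ONH and 3.97, 7.83 and 9.64 CPM in the ONP. The regions did not overlap, and the log2 fold change was 1.65 ± 0.235 (SE, edgeR's adjusted p = 6.9e-05). Mrpl33, a small large-subunit protein of bacterial descent, stood at 35.5, 42.4 and 72.2 CPM against 12.4, 23.4 and 25.1 CPM, a log2 fold change of 1.25 ± 0.183 (adjusted p = 8.54e-05). Mrpl54 had the smallest p, with 48.2, 56.8 and 104 CPM against 24.7, 27.5 and 32.8 CPM and a log2 fold change of 1.14 ± 0.147 (adjusted p = 2.8e-05). Mrps28, of the small subunit, had 33.4, 40.8 and 73.7 CPM against 19.5, 22.6 and 25.5 CPM and a log2 fold change of 1.02 ± 0.155 (adjusted p = 0.000114). None of these overlapped between the regions. Exons of Mrpl33 overlap those of Gm43809 on the same strand, and the other 3 share none.

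The genes called lower in the ONH by edgeR were Mrps2 and Mrps27, both of the small subunit. Mrps2 had 13.7, 15.3 and 24.1 CPM in the ONH and 21.9, 24.8 and 27.8 CPM in the ONP, a log2 fold change of -0.50 ± 0.144 (edgeR's adjusted p = 0.0115). Mrps27, which carries pentatricopeptide repeats and binds the 12S rRNA, had 16.7, 18.9 and 27.2 CPM against 24.3, 25.2 and 28.1 CPM, a log2 fold change of -0.39 ± 0.116 (adjusted p = 0.0133). Both ranges overlapped at their edges. Mrps22 (-0.38 ± 0.168), Mrpl10 (-0.17 ± 0.0772) and Mrpl3 (-0.14 ± 0.0969) had negative values that did not pass by edgeR. DESeq2 did call Mrps22 and Mrpl10 lower (its adjusted p = 0.048 and 0.0278). Both were also called lower by edgeR with each of the length and GC corrections given below.

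**Figure D2:**
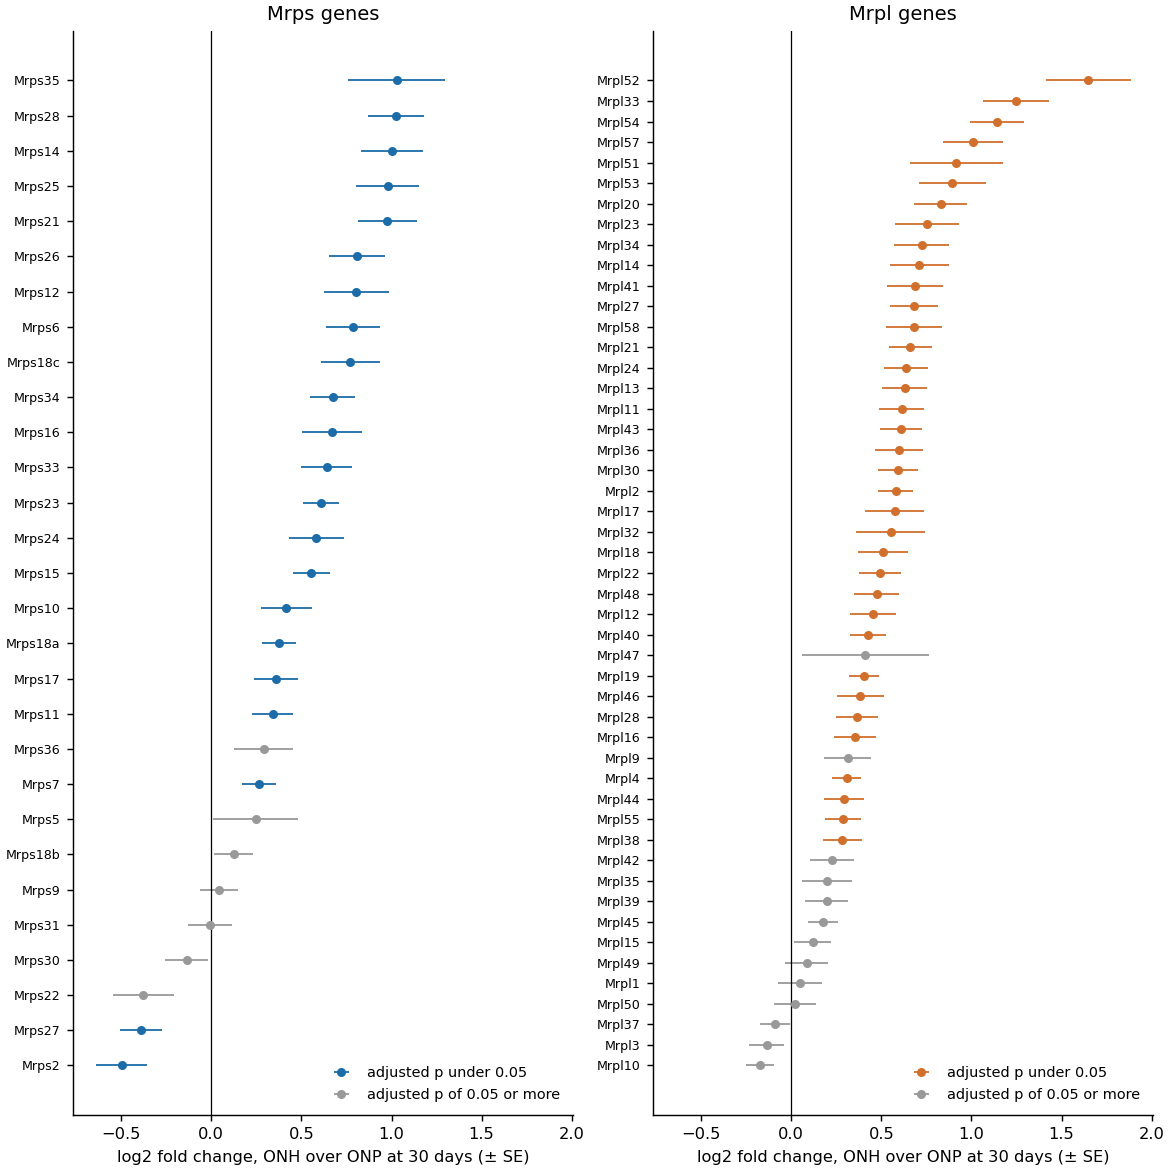
Log2 fold change, ONH over ONP at 30 days, of each Mrps and Mrpl gene with its standard error (horizontal axis), grey where the adjusted p was 0.05 or more. Values reach from -0.50 for Mrps2 to 1.65 for Mrpl52, and 70 of 78 lie above 0.

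By place in the ribosome, all 6 genes of the central protuberance (Mrpl18, Mrpl38, Mrpl40, Mrpl46, Mrpl48 and Mrpl58) were called higher in the ONH by edgeR, with a median log2 fold change of 0.45, beside 56 of all 78 and 21.8% of all genes. Of these, Mrpl48 and Mrpl58 were also called with both length and GC corrections given below, and the others with neither. No test was made between places. Mrpl58, the hydrolase that frees stalled ribosomes, had 47.4, 69.3 and 116 CPM in the ONH and 38.2, 46.1 and 52.8 CPM in the ONP, a log2 fold change of 0.68 ± 0.156. At the exit tunnel and membrane side 5 of 8 were called (median 0.45), among them Mrpl22 (0.49 ± 0.118), Mrpl23 (0.75 ± 0.177) and Mrpl24 (0.63 ± 0.122), whereas Mrpl45, which anchors the ribosome at the inner membrane, had 0.18 ± 0.084. In the stalk, which recruits translation factors, Mrpl11 (0.61 ± 0.124) and Mrpl12 (0.45 ± 0.126) were higher. Their partner Mrpl10 did not pass by edgeR and was called lower by DESeq2. In the small-subunit head 6 of 8 were called (median 0.50), with Mrps14 at 1.0 ± 0.172 and Mrps35 at 1.03 ± 0.269. Mrps12, at the decoding centre, had 0.81 ± 0.18. Also called higher were Mrps7 (0.27 ± 0.094), Mrps16 (0.67 ± 0.165), Mrps34 (0.67 ± 0.126), Mrpl32 (0.55 ± 0.19) and Mrpl44 (0.29 ± 0.112). Mrpl12, Mrpl22, Mrpl23, Mrpl44, Mrps12 and Mrps34 were called with neither correction, and Mrps7 with only the second of them.

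The regional difference at 30 days moved with transcript length. Below 1000 bases, 23 of 25 Mrp genes were called higher in the ONH (92%, median log2 fold change 0.71), against 50.7% of other genes of that length (median 0.58). From 1000 to 2000 bases it was 19 of 28 (median 0.35) against 30.4% (median 0.18). From 2000 to 4000 bases it was 7 of 16 (median 0.30) against 15.2% (median -0.15), and above 4000 bases 7 of 9 (median 0.47) against 17.3% (median -0.10). In this comparison the Mrp genes had the higher median in each length class. Over time this did not hold below 1000 bases, where the medians were 0.28 against 0.31 in the ONP, with 3 of 25 called higher against 19%, and 0.292 against 0.345 in the ONH.

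When a smooth trend on principal transcript length and GC content was removed from each library, edgeR called 26 of them higher and 8 lower at 30 days, against 19.8% and 17.8% of all genes, with a median log2 fold change of 0.15. With the shortest principal transcript the counts were 35 and 5, against 20.6% and 17.7%, and the median was 0.23. Called higher in all 3 fits were 22 genes, among them Mrpl52 (0.84 after the first correction), Mrpl54 (0.41), Mrpl33 (0.49), Mrps28 (0.45), Mrps14 (1.24), Mrps35 (1.26), Mrps16 (0.81) and Mrpl11 (0.84). Mrps2 (-0.51) and Mrps27 (-0.48) were called lower in all 3. Of the 56, 8 had negative values with the first correction and 5 with the second, Mrpl22 (-0.09) and Mrps18a (-0.12) among the 8, and none of these was called lower. Of the 8 called lower with the first, 3 had positive values uncorrected that did not pass: Mrpl42 went from 0.23 to -0.39, Mrps18b from 0.12 to -0.28 and Mrps36 from 0.29 to -0.32.

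**Figure D3:**
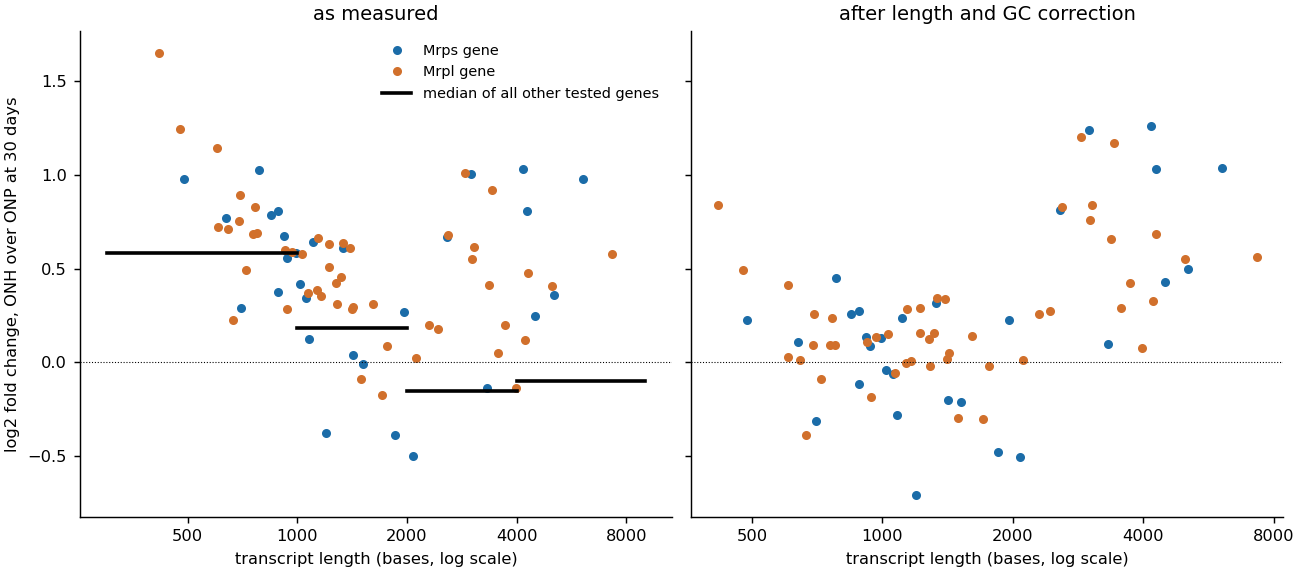
Log2 fold change of each Mrp gene, ONH over ONP at 30 days, against principal transcript length (log axis), as measured on the left, with black bars for the median of other genes in each length class, and after the length and GC correction on the right. The bars run from 0.58 below 1000 bases to -0.15 from 2000 to 4000 bases, and the median of the Mrp genes goes from 0.50 on the left to 0.15 on the right.

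At 7 days, 10 genes were higher in the ONH and 0 lower (edgeR, adjusted p under 0.05), against 6.34% and 6.81% of 14752 genes tested. They were Mrps14, Mrpl36, Mrpl12, Mrps6, Mrpl27, Mrpl54, Mrpl20, Mrps34, Mrpl33 and Mrpl13, and all 10 were also called at 30 days. Below 1000 bases 7 of 25 were called, against 11.6% of other genes of that length. From 1000 to 2000 bases it was 2 of 28 against 10.4%, and from 2000 to 4000 bases 1 of 16 against 5.1%. Above 4000 bases it was 0 of 9 against 4.07%. At an unadjusted p under 0.05 there were 40 higher and 0 lower, against 15.7% and 13.2% of all genes, and DESeq2 called 21 and 0, against 9.75% and 9.12%. The median log2 fold change was 0.47 against 0.07 for all genes, and 71 values were positive. For 24 genes the ONH lay wholly above the ONP and for 0 wholly below, against 9.89% and 11.8% of all genes. The count moved with single libraries: without ONP library 1, 5 or 6 there were 0, without ONP library 2 or ONH library 3 there were 2, and without ONH library 5 there were 6 and the median was 0.31.

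Mrps14, in the head of the small subunit, had the smallest p and the largest log2 fold change at 7 days. It stood at 80.5, 77.8, 144 and 61.9 CPM in ONH libraries 1, 3, 5 and 6 and at 43.6, 51.4, 43.2 and 41.1 CPM in ONP libraries 1, 2, 5 and 6, a log2 fold change of 1.04 ± 0.252 (edgeR's adjusted p = 0.0211). Of the 10 genes it alone was also called with both length and GC corrections. Mrpl36, a small large-subunit protein whose exons overlap those of Ndufs6 on the other strand, had 46.2, 53.2, 73.6 and 52.7 CPM against 31.1, 35.7, 35 and 34.7 CPM, a log2 fold change of 0.74 ± 0.187 (adjusted p = 0.0258). Mrpl12, of the stalk, whose exons overlap Gm16755 on the other strand, had 76.1, 94.5, 102 and 72.9 CPM against 54.9, 52.6, 57.4 and 59.4 CPM, 0.64 ± 0.165 on the log2 scale (adjusted p = 0.0281). Mrps6 had 126, 172, 254 and 118 CPM against 89.6, 103, 88.7 and 78.4 CPM, 0.92 ± 0.242 on the log2 scale (adjusted p = 0.0311). In these 4 genes no ONH library reached down to the ONP. Mrps2 again had the most negative value, -0.43 ± 0.297, with 11.2, 21.9, 12.6 and 27.8 CPM against 24.2, 24.9, 27.9 and 23.6 CPM, and did not pass. With the 2 corrections 2 and 2 genes were called higher and 0 lower, against 6.11% and 6.11% of all genes higher and 6.58% and 6.56% lower, at medians of 0.17 and 0.21.

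From 7 to 30 days in the ONP, 14 genes rose and 0 fell (edgeR, adjusted p under 0.05), against 7.82% and 9.21% of 15491 genes tested. They were 6 Mrps and 8 Mrpl genes. The median log2 fold change was 0.21 against -0.01 for all genes, and 66 values were positive. For 15 genes the days did not overlap, all higher at 30 days, against 6.2% of all genes higher and 5.79% lower. At an unadjusted p under 0.05 there were 33 higher and 0 lower, against 15.6% and 16.9%, and DESeq2 called 26 and 0, against 11.2% and 9.01%. Of the 14, 11 were also called between the regions at 30 days, a comparison that uses the same ONP libraries. Marker sums moved with the day as well. In ONP libraries 1 to 7 at 30 days the Mrp genes summed to 3458, 3414, 3429, 2989, 3026, 3114 and 3162 CPM. In the same order the microglia and macrophage markers summed to 452, 349, 292, 1485, 4322, 312 and 5255 CPM, and the astrocyte markers to 28560, 31580, 33470, 23770, 15000, 28660 and 20310 CPM. The oligodendrocyte markers summed to 43670, 38130, 25900, 67030, 84270, 53670 and 57470 CPM in that order. In ONP libraries 1, 2, 5 and 6 at 7 days they summed to 82290, 89460, 91720 and 107700 CPM. The part of these in the rise was not tested.

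Mrps10, in the head of the small subunit, had the smallest p. It stood at 20.6, 25.8, 25 and 20.6 CPM in ONP libraries 1, 2, 5 and 6 at 7 days and at 34.8, 36.5 and 38 CPM (lowest, median and highest of 7) at 30 days. The days did not overlap, and it rose by 0.63 ± 0.096 on the log2 scale (edgeR's adjusted p = 0.00176). Mrps16, a small-subunit protein of bacterial descent, rose most, by 0.74 ± 0.176 (adjusted p = 0.0156), with 15.7, 26.1, 19.7 and 16.6 CPM and then 25.8, 32.3 and 43.3 CPM. Library 2 at 7 days alone reached its 30-day range. Mrps17 had 36, 34.3, 33.6 and 36.4 CPM and then 43.1, 49.6 and 52.3 CPM, a rise of 0.45 ± 0.0906 (adjusted p = 0.00734). Mrps18b had 32, 37.9, 28.8 and 30 CPM and then 39.8, 45.1 and 50.8 CPM, a rise of 0.46 ± 0.107 (adjusted p = 0.0136). Mrpl27, of the large subunit, had 56.9, 56, 51.3 and 46.5 CPM and then 64.2, 73.8 and 81 CPM, a rise of 0.44 ± 0.0983 (adjusted p = 0.0116). In these last 3 the days were apart. Exons of Mrpl27, Mrps18b and Mrps25 overlap those of Eme1, Gm16279 and Nr2c2 on the other strand.

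The other genes called in the ONP over time were Mrpl11, Mrpl13, Mrpl14, Mrpl18, Mrpl37, Mrpl50, Mrpl55, Mrps25 and Mrps33, and the most negative value was that of Mrpl53, -0.26 ± 0.135, which did not pass. With the length and GC correction 6 genes were called higher and 1 lower by edgeR, against 6.4% and 8.02% of all genes, at a median of 0.06. With the shortest transcripts there were 6 and 2, against 6.14% and 7.43%, at a median of 0.06. Called higher in all 3 fits were Mrpl11 (0.44), Mrps10 (0.39), Mrps16 (0.68) and Mrps25 (0.63), with the value after the first correction in parentheses. Single libraries moved the count of 14: it was 6 without library 6 and 9 without library 5 at 7 days, and 8, 9 and 24 without libraries 1, 3 and 5 at 30 days.

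**Figure D4:**
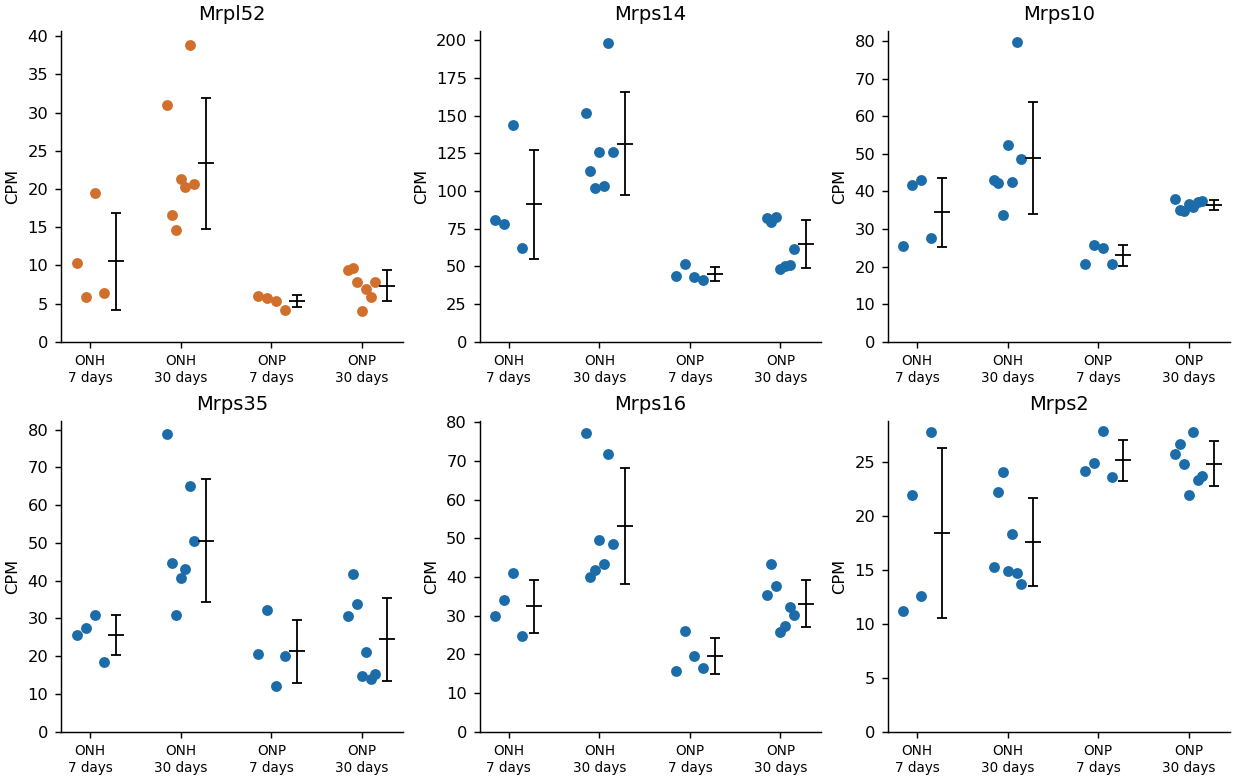
CPM of Mrpl52, Mrps14, Mrps10, Mrps35, Mrps16 and Mrps2 (vertical axes from 0), 1 point per library by region and day, with group mean ± SD. Mrps14 is higher in the ONH at both days and Mrpl52 at 30 days, while at 7 days the regions overlap for Mrpl52. Mrps10 in the ONP goes from at most 25.8 CPM at 7 days to at least 34.8 CPM at 30 days, and Mrps2 at 30 days has its higher median in the ONP.

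In the ONH over time edgeR called 0 genes higher and 0 lower, and 0.0% and 0.0% of all 15668 genes tested. At an unadjusted p under 0.05, 17 were higher and 1 was lower, against 7.1% and 6.8% of all genes. DESeq2 called 2 higher, Mrps35 and Mrps25, and 0 lower, against 1.55% and 0.93%. The days were fully apart for 0 genes, against 1.76% of all genes higher and 0.53% lower. The median log2 fold change was 0.26, with 66 positive values, against -0.02 for all genes. It was 0.45 without library 5 at 7 days, when edgeR called 2, 0.17 without library 1 at 7 days, 0.17 without library 6 at 30 days, and 0.08 after the length and GC correction.

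Mrps35, a small-subunit protein found in mitochondria alone, had the smallest p in the ONH over time. It stood at 25.7, 27.4, 30.9 and 18.4 CPM in ONH libraries 1, 3, 5 and 6 at 7 days and at 30.8, 44.6 and 78.9 CPM (lowest, median and highest) at 30 days, a log2 fold change of 0.95 ± 0.243 (edgeR's adjusted p = 0.189). Mrps25, of the same subunit, had 52.2, 69.7, 115 and 39.5 CPM and then 108, 113 and 208 CPM, 1.01 ± 0.294 on the log2 scale (adjusted p = 0.196). In both the days overlapped. Mrpl52 had the largest value, 1.12 ± 0.361, with 10.3, 5.89, 19.5 and 6.39 CPM and then 14.6, 20.7 and 38.9 CPM. Mrps30 had the most negative one, -0.44 ± 0.177, with 32.5, 46.7, 44.5 and 28.5 CPM and then 21.8, 30 and 32.3 CPM. Mrpl17, at the exit tunnel, and Mrps16 had 0.62 ± 0.194 and 0.68 ± 0.217.

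The difference between the regions in the change over time, coded as the ONP change minus the ONH change, was called for 0 genes by edgeR, against 0.543% of 16748 genes tested, and for 0 by DESeq2, against 2.28%. At an unadjusted p under 0.05 there was 1, Mrpl30, against 12.6% of all genes. The median was -0.01, with 34 positive and 44 negative values. Mrpl30, a large-subunit protein of bacterial descent, had 19.9, 31.6, 34.1 and 26.7 CPM and then 32.8, 40.1 and 54.3 CPM in the ONH. In the ONP it had 30, 29, 22.5 and 24.7 CPM and then 23.6, 26.1 and 30.8 CPM, and the interaction was -0.52 ± 0.213 (edgeR's adjusted p = 0.31). Mrps35 and Mrpl49 had the most negative and the most positive interaction, -0.78 ± 0.436 and 0.40 ± 0.204, and Mrpl53 had -0.53 ± 0.302. Counting direction alone, 60 genes had positive values over time in both regions, 6 negative values in both, and 6 and 6 a positive value in the ONH or the ONP alone. Across the 5 comparisons 61 genes were called at least once. Most of them were called between the regions at 30 days, where 21.8% of all genes were called higher and 20.0% lower.

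Small-subunit and large-subunit genes moved nearly in step, and no test was made between them. Median log2 fold changes of Mrps and Mrpl genes were 0.56 and 0.49 between the regions at 30 days, 0.51 and 0.47 at 7 days, 0.29 and 0.19 in the ONP over time and 0.22 and 0.28 in the ONH over time. The Mrps minus the Mrpl mean log2 CPM within a library was -0.12 ± 0.0317 (SD, n = 4) in the ONH and -0.08 ± 0.056 in the ONP at 7 days, and -0.10 ± 0.0256 (n = 7) against -0.05 ± 0.0229 at 30 days. Mrps genes held 36.7% and 35.3% of the summed CPM in the ONH and ONP at 7 days, and 37.5% and 35.9% at 30 days. Symbols do not give the place of each protein: Mrps30 and Mrps18a sit in the large subunit and Mrps36 belongs to the 2-oxoglutarate dehydrogenase complex. At 30 days Mrps18a was higher in the ONH (0.38 ± 0.0953), whereas Mrps30 (-0.14 ± 0.118) and Mrps36 (0.29 ± 0.164) did not pass. With these placed as known, the 30-day medians were 0.60 for 26 small-subunit and 0.47 for 51 large-subunit genes. Proteins named after a bacterial homologue were set apart by that name, which need not give the descent of each protein. Of 46 genes with such a name 36 were higher in the ONH at 30 days, and of 32 without one 20, beside 21.8% of all genes. Their medians were 0.55 and 0.40, and the difference between them was not tested.

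Of 5 mitoribosomal proteins with other symbols, Gadd45gip1 (1.02 ± 0.142), Aurkaip1 (0.88 ± 0.133) and Chchd1 (0.68 ± 0.17) were higher in the ONH at 30 days by edgeR. Ptcd3, a pentatricopeptide repeat protein of the small subunit like Mrps27, was lower (-0.35 ± 0.134), and Dap3, a GTP-binding protein of the small subunit, had 0.06 ± 0.0872. Gadd45gip1 (0.86 ± 0.243) and Aurkaip1 (0.89 ± 0.201) were also higher at 7 days, and Aurkaip1 rose in the ONP over time (0.50 ± 0.098). The rRNAs they bind are not cytosolic messages, and how a pull-down comes to hold them was not tested. The 16S rRNA, mt-Rnr2, had 447, 705 and 2278 CPM in the ONH against 89.9, 161 and 343 CPM in the ONP at 30 days, a log2 fold change of 2.18 ± 0.365. The 12S rRNA, mt-Rnr1, had 64.4, 104 and 339 CPM against 12.5, 23.4 and 60.6 CPM, a log2 fold change of 2.02 ± 0.392. Neither overlapped between the regions at 30 days. At 7 days mt-Rnr2 and mt-Rnr1 had 0.51 ± 0.329 and 0.19 ± 0.43, and their interactions of -1.72 ± 0.57 and -1.87 ± 0.649 did not pass either (adjusted p = 0.184 and 0.208).

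Other genes of mitochondrial translation had medians near or below 0 between the regions at 30 days. These values carry no correction for length and GC content, and the lists were not tested against the Mrp genes. Their counts stand beside 21.8% of all genes called higher and 20.0% lower. With 10 to 24 genes a list, they lie within a few genes of those shares. Of 17 mitochondrial aminoacyl-tRNA synthetases, edgeR called 1 higher and 6 lower at 30 days (median log2 fold change -0.31), with Mars2, for methionine, at -1.21 ± 0.176 and Lars2, for leucine, at 1.05 ± 0.263. Lars2 had 2420, 4370 and 11300 CPM in the ONH against 1750, 2340 and 2630 CPM in the ONP. No other synthetase exceeded 54.9 CPM in any library. ONH library 6 was highest of its group for Lars2 and for mt-Rnr2, at 2278 CPM. Whether all counts of Lars2 come from its own message was not tested. Of 14 translation factors edgeR called 2 higher and 0 lower (median -0.02), the elongation factor Tsfm (0.75 ± 0.103) and the deformylase Pdf (0.45 ± 0.12). Of 24 assembly factors it called 3 higher and 4 lower (median 0.09), with Ngrn at 0.88 ± 0.14 and Noa1 at -0.47 ± 0.106. Of 18 genes of mitochondrial DNA expression it called 1 higher and 4 lower (median -0.14), with the RNA polymerase Polrmt at -0.72 ± 0.155 and the helicase Supv3l1 at -0.79 ± 0.163. Of 10 regulators of biogenesis it called 2 higher and 3 lower (median -0.35), with the coactivator Ppargc1a at -1.92 ± 0.266 and Myc at -1.64 ± 0.36.

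In the ONP over time, where 7.82% of all genes were called higher and 9.21% lower, edgeR called 1 higher and 2 lower of these synthetases, 0 higher and 2 lower of the factors (Mtif2 at -0.64 ± 0.131 and Gfm1 at -0.62 ± 0.168), 2 higher and 1 lower of the assembly factors, 2 higher and 2 lower of the genes of DNA expression and 1 higher and 0 lower of the regulators (Ppargc1a at 0.89 ± 0.266). With 10 to 24 genes a list, these counts lie within a few genes of those shares. Between the regions at 7 days Pdf (0.75 ± 0.211) and Ngrn (0.98 ± 0.221) were higher in the ONH and Lrpprc, which stabilizes mitochondrial mRNA, was lower (-1.14 ± 0.32), and no other gene of these 5 lists was called.

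Respiratory chain and cytosolic ribosomal protein genes differed in the same direction between the regions. Beside the same 21.8% and 20.0% of all genes, at 30 days edgeR called 59 of 81 nuclear respiratory chain genes higher in the ONH and 3 lower (median log2 fold change 0.63), and 74 of 76 cytosolic ribosomal protein genes higher and 0 lower (median 0.79). Of the 13 subunits encoded in mitochondrial DNA, which the mitoribosome translates, 8 were higher and 0 lower (median 0.86). With the length and GC correction these medians were 0.11, 0.25 and 0.46. In the ONP over time, where 7.82% of all genes were called higher and 9.21% lower, 34 of 78 nuclear genes rose and 2 fell (median 0.39). There 11 cytosolic ribosomal protein genes rose (median 0.23). Of the mitochondrially encoded subunits, 13 of 13 had negative values (median -0.42) and 1 fell, mt-Co1 (-0.78 ± 0.249). At 7 days, where 6.34% of all genes were called higher in the ONH, the calls were 4 nuclear, 0 mitochondrially encoded and 1 cytosolic ribosomal protein genes. Their lists had medians of 0.56, 0.10 and 0.43.

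**Figure D5:**
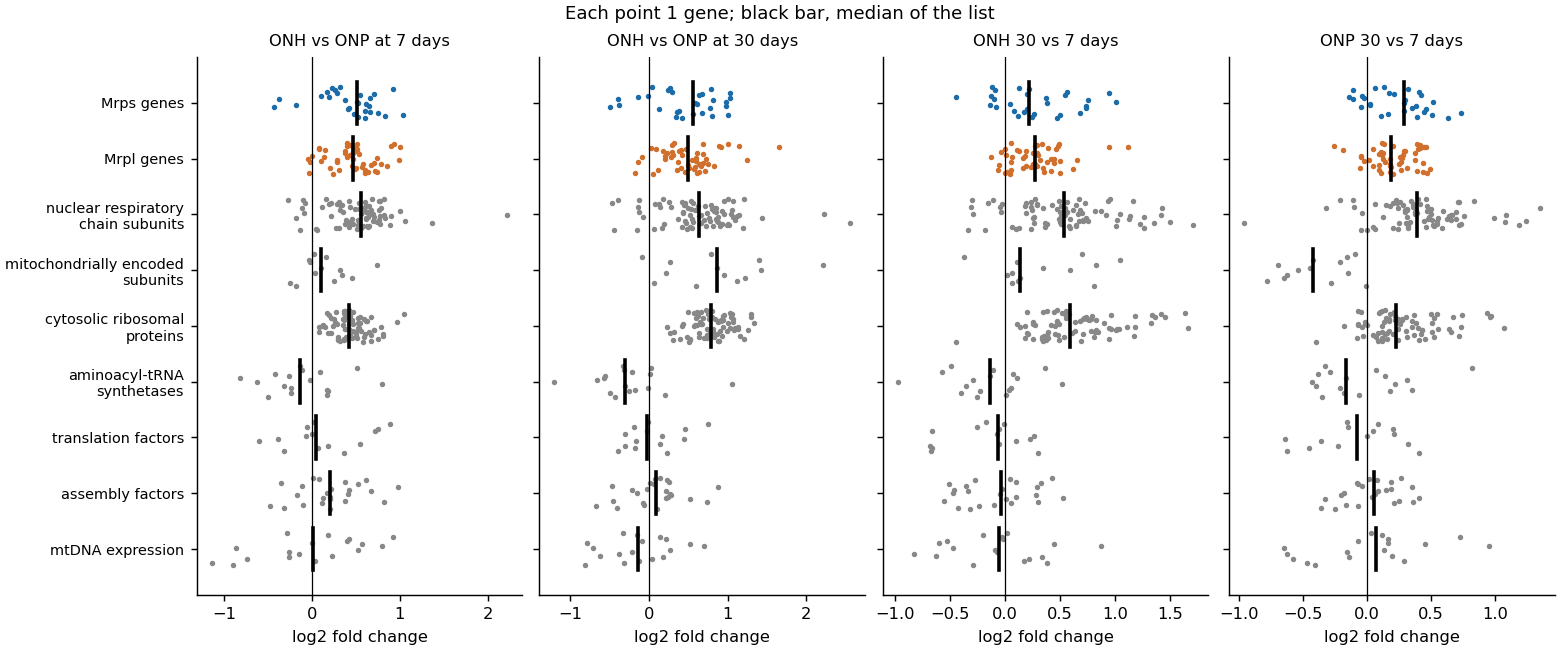
Log2 fold change of each gene in 9 lists, 1 point per gene with the list median as a black bar, in 4 comparisons, each panel with its own horizontal scale. The medians of the Mrps and Mrpl genes lie above 0 in all 4, as do those of the nuclear respiratory chain and cytosolic ribosomal protein genes, while that of the mitochondrially encoded subunits is -0.42 in the ONP over time.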

How the data were processed

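Libraries were made from poly(A) RNA with a low-input kit that does not mark strand, and all were prepared and sequenced together. The authors aligned reads to mm10 with STAR 2.6.1d and quantified genes of Ensembl release 94 with Salmon 0.14.2, and deposited the expected counts, as whole numbers. The deposited log2 values are the authors' variance stabilized counts from DESeq2 1.34.0, and were used here only as an alternative for the subunit levels.

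The expected counts were tested with edgeR 4.0.16 (filterByExpr, TMM, quasi-likelihood test, Benjamini-Hochberg adjustment over all genes tested, adjusted p under 0.05) on the groups of each comparison. DESeq2 1.42.0, limma-voom 3.58.1, other scalings and filters, and a correction for transcript length and GC content (a spline with 5 degrees of freedom per library) were alternatives, and a second correction on the shortest principal transcript was chosen after seeing the data. Log2 CPM used a prior count of 2. The tests were tried on simulated counts first. Lengths and positions came from GENCODE M21 (GRCm38), in which 16 gene identifiers had no match.

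The genes and lists were chosen with earlier results of these data known. Named are, in each comparison, the 4 genes of smallest p and those with the largest values either way, the 2 highest and lowest levels per length in each subunit, and a set of genes named for their roles. Genes of other lists are named by smallest p. Mrps27, Mrps35 at 30 days, Lars2 and the genes in lists of calls were named after their values were seen.

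Libraries were not paired: no source ties their numbers to pools of mice.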

Additional observations from a re-analysis of the deposited data

Results flagged for a closer look

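Among 96 sets of 4 or 7 libraries examined for the genes named by rank and the subunit means, 7 held a library far from the rest by Dixon's test. By chance about 1 in 20 of the sets examined would be flagged. In the ONH at 30 days library 6 was the highest of its group for Mrpl12 at 140 CPM (others 68.5 to 90.8), Mrpl30 at 54.3 CPM (others 32.8 to 41.8), Mrpl54 at 104 CPM (others 48.2 to 64.8), Mrps10 at 79.6 CPM (others 33.6 to 52.4) and Mrps6 at 306 CPM (others 162 to 219). The same library was highest of its group for genes other than the Mrp genes with transcripts under 1000 bases, at a mean log2 CPM of 3.15, and for mt-Rnr2, at 2278 CPM. In the ONP at 7 days library 2 was the highest for Mrps25 at 59.9 CPM (others 45.1 to 46.2) and Mrps28 at 23.9 CPM (others 21.5 to 21.9). What sets these libraries apart was not tested.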

How the results depend on the processing

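Sign changes of the genes named for the regional difference at 30 days or by rank came with the 2 corrections alone. Over all 78 genes, the other settings apart from leaving out a library changed the sign of 0 to 21 genes in a comparison, none of which was called with either sign. Between the regions at 30 days the length and GC correction turned Mrpl22 to -0.088, Mrps18a to -0.116, Mrps36 to -0.316, Mrpl3 to 0.0784 and Mrps30 to 0.0966, and that on the shortest transcripts Mrps18a to -0.0365, Mrps36 to -0.168, Mrpl3 to 0.072 and Mrps30 to 0.125. Genes called higher in the ONH at 30 days numbered 26 with the length and GC correction and 35 with the shortest transcripts (8 and 5 lower, medians 0.154 and 0.229), and DESeq2 called 4 lower. At 7 days the count was 21 by DESeq2, 23 scaled by library size only, 5 without the filter, 31 with all 4 groups in 1 fit, and 2 and 2 with the corrections (medians 0.174 and 0.21). In the ONP over time it was 26 by DESeq2, 31 by library size only (median 0.32), 22 with at least 10 counts in every sample, 4 with all 4 groups, and 6 and 6 with the corrections (1 and 2 lower, medians 0.06 and 0.061). In the ONH over time it was 2 by DESeq2 and 1 with all 4 groups. For the other scaling, the filters and the single fit, shares of all genes were not counted, so those counts stand alone. The causes were not tested.

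The Mrps minus Mrpl difference in median log2 fold change was small and unstable in sign. With the 2 corrections it was -0.0198 and -0.0116 between regions at 30 days, -0.0542 and -0.0222 at 7 days, -0.00216 and -0.00382 in the ONP and -0.00346 and -0.0158 in the ONH over time. With limma-voom it was -0.0102 at 7 days and -0.0148 in the ONH over time. By known place it was 0.122 at 30 days, and the difference in level in the ONH at 30 days was -0.0357.

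Leaving out 1 library at a time gave 47 to 55 genes higher in the ONH at 30 days (median 0.401 to 0.585), 0 to 13 at 7 days (0.307 to 0.54), 6 to 24 in the ONP over time (0.181 to 0.248), 0 to 2 in the ONH over time (0.168 to 0.45), and an interaction median of -0.177 to 0.0963. The Mrps minus Mrpl difference ran over 0.034 to 0.117, -0.028 to 0.075, 0.0428 to 0.0929 and -0.0754 to -0.0134 in the same order, and -0.0395 to 0.117 for the interaction. As a level it ran over -0.129 to -0.104 and -0.102 to -0.0577 in the ONH and ONP at 7 days, and -0.106 to -0.094 and -0.0558 to -0.0437 at 30 days.

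With the number in the column name as a replicate block, 53 genes were higher and 2 lower in the ONH at 30 days (median 0.484, 7 pairs). Of all 15133 genes tested, 3340 were then higher and 3377 lower. It called 0 at 7 days (median 0.46, 3 pairs), against 384 higher and 476 lower of all genes. In the ONP over time it called 0 (median 0.237, 4 shared numbers), against 144 and 259 of all genes. In the ONH over time it called 0 (median 0.312), against 0 and 0 of all genes. In the interaction it called 0 (median -0.0518), against 20 and 51 of all genes. Each mouse was killed at 7 or at 30 days, so over time same-numbered libraries hold different mice and the block pairs none. The Mrps minus Mrpl difference was 0.0637, 0.0237, 0.057, -0.0226 and -0.00319 in the same order. The libraries share only a number: deviations from the group means of same-numbered libraries correlated at 0.0746 to 0.494 between regions at 30 days, 0.0139 to 0.156 at 7 days, -0.133 to 0.0969 in the ONP and -0.267 to 0.161 in the ONH over time, and 3 of 7, 2 of 3, 1 of 4 and 1 of 4 matched their own number best. Libraries with an unshared number add nothing to the blocked fits. With 4 libraries per region, the comparisons that use 7 days resolve less than the one within 30 days.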
